A study of Mus musculus with 15 samples.

Results

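The genes described here are the nuclear genes of the mitochondrial respiratory chain and ATP synthase, read across macrophages of 6 mouse tissue sources. They were chosen by symbol (starting with Nduf, Uqcr, Cox4i, Cox5, Cox6, Cox7, Cox8 or Atp5, and Sdha to Sdhd) and by a mean of 10 or more counts over the 15 libraries. Of 90 symbols with these names, 80 passed, out of 24084 genes in the table, and all 80 were among the 15289 genes tested. The 80 comprise 7 core subunits, 28 accessory subunits and 7 assembly factors of complex I, 4 subunits of complex II, 7 genes of complex III, 12 of complex IV and 15 of complex V. Complex V here means every member whose symbol starts with Atp5, Atp5s and Atp5sl included, whether or not its product is a subunit. Just inside the limit lay Ndufab1 (mean 10.2 counts) and Ndufaf5 (13.2), and just outside lay Cox7b2 (9.60) and Ndufaf3 (7.0). A member whose level sits near the limit in most groups can pass through 1 group where it is high, as Cox6a2 did.

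The cells were sorted directly from C57BL/6J mice as positive for F4/80 and CD45, and their RNA was sequenced with a low-input protocol. The groups are macrophages of sympathetic ganglia (SAM ganglia, 3 libraries), of sympathetic nerve fibers dissected out of the inguinal depot (SAM fibers, 2), of the subcutaneous fat next to them (sATM, 2), of visceral fat (vATM, 2; both fat groups are labelled anti-inflammatory), of spleen (SpM, 3) and of brain (microglia, 3). All tissues came from 10 mice. Nothing in the labels ties a library to an animal, so that the p-values may reflect technical spread alone. The labels name no treatment or transgene, and the letters ND in the sample titles are not explained there. Digestion was at 37 °C in all groups, and its enzymes and times went with tissue. Fat, spleen and brain had 30 minutes in collagenase. Fibers had hyaluronidase (30 minutes) before collagenase (15 minutes), and ganglia had collagenase (10 minutes) before trypsin (30 minutes). Tissue and digestion cannot be told apart for the ganglia and the fibers.

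The respiratory chain passes electrons from NADH (complex I) and succinate (complex II) through ubiquinone, complex III and cytochrome c to oxygen (complex IV), and complex V uses the resulting proton gradient to make ATP. Each complex except complex II combines subunits encoded in the nucleus with subunits encoded in mitochondrial DNA, and only the nuclear ones are described, since transcripts of mitochondrial DNA are not analysed here. In macrophages, respiration is known for its link to activation state: alternatively activated cells rely on it, and inflammatory stimulation shifts cells towards glycolysis.

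Between 46.1% and 71.5% of a library's corrected counts fell on genes that collect ribosomal RNA, and the 80 genes together held 9869 to 50093 counts in a library. As a reading of genomic DNA, the raw CPM (counts scaled to a common library total) on 1125 genes of olfactory receptors ranged from 32.9 to 1233 and were highest in SAM fibers 1. The replicate number went with a library property: 12707 to 15161 genes were detected in the 6 libraries numbered 1 and 16473 to 17389 in the 9 others, and the olfactory receptor reading was lowest in number 1 in 5 of the 6 groups. With the number as a term in the fit, calls described in the text were lost for Cox6c (any difference), Atp5a1 and Ndufa11 (fat against microglia), Atp5e and Ndufaf7 (fat against spleen), Cox7b (ganglia against fat) and Ndufaf1 (fibers against sATM). Of the marker lists, 7 microglia genes summed to between 12411 and 14026 CPM in microglia against 40.5 to 1306 elsewhere, and 6 red pulp macrophage genes to between 8210 and 13360 CPM in spleen against 63.0 to 241 elsewhere. The 6 markers of resident fat macrophages summed to between 8248 and 11994 CPM in vATM, 1802 in sATM 1 and 5986 in sATM 2. The sum of sATM 1 lay inside the 1306 to 2541 of the ganglia. Most of the vATM and sATM 2 sums was Retnla (6119 to 9629 CPM in vATM, 837 and 4602 in sATM). Retnla, Lyve1 and Cd209f were higher in sATM than in ganglia without overlap, Mrc1 and Cd163 were lower, and F13a1 overlapped. The fibers carried the highest sums for sympathetic neuron genes (299 and 731 CPM), Schwann cell genes (646 and 667), erythroid genes (1660 and 4642) and fibroblast genes (167 to 246, against 19.1 to 26.8 in sATM and at most 53.3 in any other group).

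Across the groups, respiratory chain transcripts had their highest group means in the fat macrophages and their lowest in microglia. The 80 genes together gave 5225 and 5050 CPM in vATM, 3380 and 5759 in sATM, 4158 and 3768 in fibers, 3636, 3562 and 3836 in spleen, 2869, 3747 and 3752 in ganglia, and 2611, 2771 and 3004 in microglia. All microglia libraries lay below all fat, fiber and spleen libraries, 1 ganglia library lay within the microglial range, and the sATM libraries lay on either side of the vATM pair. As a share of all counts outside the ribosomal RNA genes, which no scaling factor touches, the 80 genes made up 0.913% to 1.41% in the 4 fat libraries, 0.825% and 1.16% in fibers, 0.893% to 1.08% in spleen, 0.685% to 0.908% in ganglia and 0.665% to 0.786% in microglia. Fat overlapped fibers and spleen on this measure and in CPM, and overlapped ganglia in CPM alone, through sATM 1. Among libraries numbered 1 and among those numbered 2, both fat libraries had a higher sum in CPM than the microglia library. The group mean was highest in vATM for 48 of the 80 genes and lowest in microglia for 44. In bulk RNA, fewer cells of a type and less RNA per cell cannot be told apart.

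**Figure D1:**
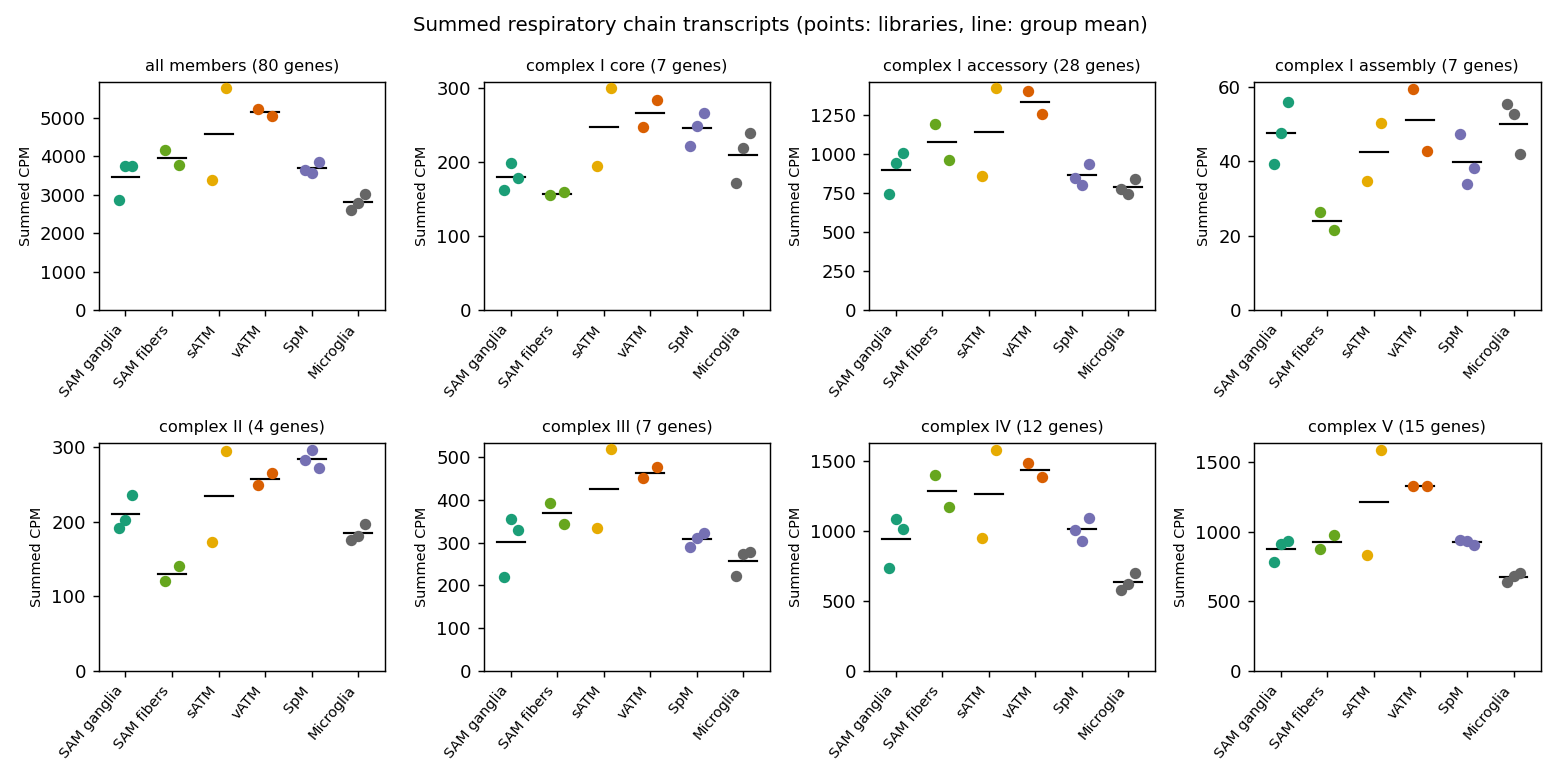
Summed level in CPM of all 80 genes and of each complex (vertical axes), in each library (points, coloured by group) with the group mean (line). Microglia are lowest for complexes IV and V (577 to 698 and 636 to 706 CPM), while complex II is highest in spleen and lowest in fibers.

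The complexes did not share 1 order of groups. Like the total, complexes III, IV and V and the complex I accessory subunits had their highest group mean in vATM and their lowest in microglia. Complex IV was at 1438 ± 68.4 CPM (SD, n = 2) in vATM and 632 ± 61.1 (SD, n = 3) in microglia. Complex II was highest in spleen at 284 ± 12.1 CPM (SD, n = 3) and lowest in fibers at 130 ± 14.3 (SD, n = 2), with no overlap between these groups, while sATM 2 (296) lay inside the spleen's range of 273 to 297. The core subunits of complex I were lowest in fibers (155 and 160 CPM), and the complex I assembly factors, at 21.4 and 26.3 CPM, were also lowest there. Both fiber sums include zeros that may be failed estimates. These are Ndufs1 in SAM fibers 1, Ndufaf5 in SAM fibers 2, and Ndufaf1 and Ndufaf4 in both. Whether the fibers stay lowest without these genes was not tested. Over the 15 libraries the median Pearson correlation between 2 members was 0.51 within a role (618 pairs) and 0.36 between roles (2542 pairs). Here the core, accessory and assembly genes of complex I count as separate roles, and the values describe levels that share libraries and scaling.

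By the test for any difference between the 6 groups (edgeR quasi-likelihood, Benjamini-Hochberg adjusted over 15289 genes), 15 of the 80 members passed, against a background of 22.2% of all tested genes, so that a member passed no more often than genes in general. They were Cox6a2 (which the count limit admitted through its spleen libraries alone, so that its calls support nothing here or below), Cox5a, Cox7b, Cox6b1, Cox6c and Cox8a of complex IV, Ndufa6 and Ndufa1 among complex I accessory subunits, the assembly factors Ndufaf4 and Ndufaf7, Sdha, Uqcr10, and Atp5e, Atp5o and Atp5g3 of complex V. None of the 7 core subunits of complex I passed. The count was 4 without vATM 1, 5 without vATM 2, 6 without microglia 1 and 25 without SAM fibers 2.

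**Figure D2:**
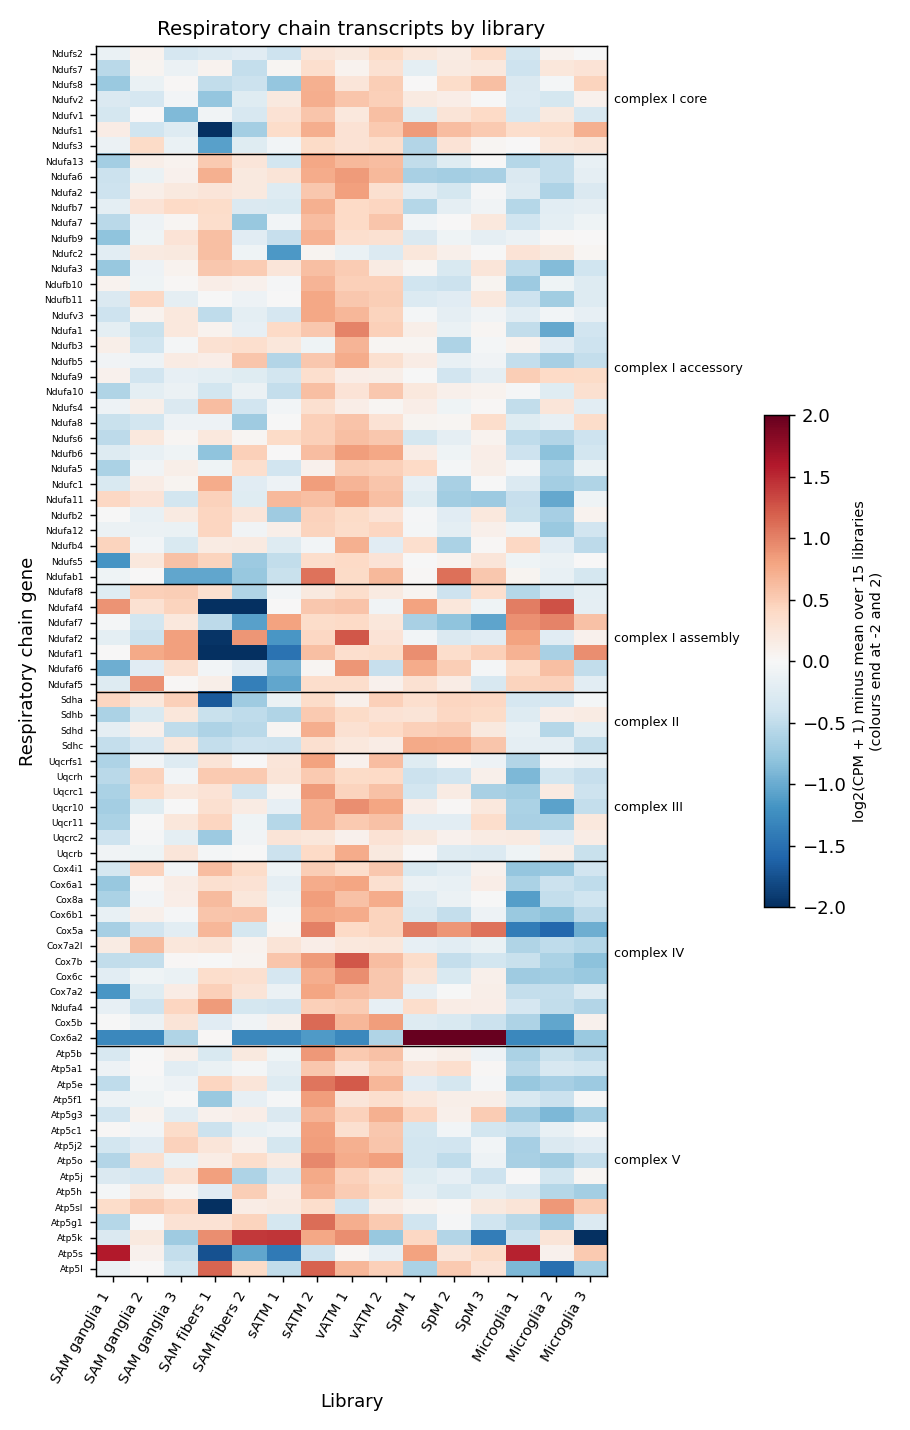
Levels of the 80 genes (one line each, ordered by role and then by mean level) in the 15 libraries (columns): log2(CPM + 1) minus the gene's mean over all libraries, red above and blue below. Most subunits are red in sATM 2 and both vATM libraries and blue in microglia, Cox6a2 is red in spleen alone, and several assembly factors are blue in the fibers.

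Per length, the 3 most abundant members were subunits of cytochrome c oxidase, though other subunits of that complex lay below members such as Atp5e (230 RPKM). In deposited RPKM (reads per kilobase of transcript, scaled for library size), the highest means over 15 libraries were 417 for Cox4i1, the ubiquitous isoform of subunit 4, 294 for Cox6a1, the ubiquitous isoform of subunit 6a, and 284 for Cox8a, the ubiquitous isoform of subunit 8. The lowest were 0.645 for Ndufaf5 and 1.59 for Ndufab1. The tissue-restricted or inducible counterparts Cox4i2, Cox6b2, Cox7a1, Cox8b, Cox8c and Ndufa4l2 all had means under 10 counts (1.86 to 4.73), which is why they are no members. Cox7c, a ubiquitous subunit of complex IV, was also listed at a mean of only 5.05 counts and Atp5g2, a gene for the c subunit of complex V, at 0.058, so that a low value in this table does not by itself show that a transcript is absent.

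The 5′ ends of these genes were searched for short motifs as a description of the whole set. Whether a motif goes with the 24 members that moved one way between fat and microglia, given next, was not tested. Of the 80 genes, 65 were found in the RefSeq promoter table (build GRCm38.p6, 250 bases before to 50 after the start). Searched on both strands, the core GCATGCGC of the NRF1 site was found in 11 of 65 (16.9%, against 3.05% of 27025 genes), CCGGAAG of ETS factors such as GABPA in 18 (27.7% against 9.93%), AAGATGGCG of YY1 in 8 (12.3% against 1.64%), and TATAAA in 5 (7.69% against 15.7%). The members' windows had a median GC content of 58.7%, against 52.7% over all windows, and a match describes letters and not binding. Printed below, 5′ to 3′ on the gene's strand, are 250 bases before to 30 after the start for 4 genes the results turn on, with matches in capitals: Cox5a (chr9:57520982-57521261, plus strand), with no match; Cox6a1 (chr5:115348929-115349208, minus), with GCATGCGC on both strands in 1 overlapping run and CCGGAAG on the reverse strand; Atp5e (chr2:174464072-174464351, minus), with CCGGAAG on the reverse strand; and Ndufa6 (chr15:82354262-82354541, minus), with GCATGCGC.
Cox5a: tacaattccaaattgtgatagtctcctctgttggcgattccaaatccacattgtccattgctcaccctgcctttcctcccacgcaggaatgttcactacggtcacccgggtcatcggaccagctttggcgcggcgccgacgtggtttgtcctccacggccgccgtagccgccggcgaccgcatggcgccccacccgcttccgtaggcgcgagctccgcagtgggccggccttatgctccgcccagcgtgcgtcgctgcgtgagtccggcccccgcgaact
Cox6a1: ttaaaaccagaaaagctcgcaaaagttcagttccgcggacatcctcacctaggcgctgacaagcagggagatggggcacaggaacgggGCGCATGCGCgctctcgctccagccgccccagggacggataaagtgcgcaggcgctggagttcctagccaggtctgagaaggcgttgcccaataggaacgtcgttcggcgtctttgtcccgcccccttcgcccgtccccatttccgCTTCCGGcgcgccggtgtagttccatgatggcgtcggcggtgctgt
Atp5e: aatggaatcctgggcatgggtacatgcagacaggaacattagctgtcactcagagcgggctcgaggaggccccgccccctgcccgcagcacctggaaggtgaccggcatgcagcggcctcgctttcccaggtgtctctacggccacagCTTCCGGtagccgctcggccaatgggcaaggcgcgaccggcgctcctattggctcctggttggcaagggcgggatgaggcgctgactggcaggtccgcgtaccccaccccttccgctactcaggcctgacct
Ndufa6: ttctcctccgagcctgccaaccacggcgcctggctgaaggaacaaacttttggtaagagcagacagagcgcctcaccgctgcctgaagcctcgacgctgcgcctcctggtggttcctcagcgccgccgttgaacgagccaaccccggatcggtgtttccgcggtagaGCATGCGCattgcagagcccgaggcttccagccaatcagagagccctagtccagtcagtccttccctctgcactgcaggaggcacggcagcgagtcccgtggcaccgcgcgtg

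Fat macrophages carried more transcript than microglia for subunits of complexes IV and V, complex III and the complex I periphery, and not detectably more for the complex I core or complex II. Comparing the mean of sATM and vATM with microglia, 24 of 80 members rose and 0 fell, against backgrounds of 8.66% of all tested genes higher and 6.74% lower (15.4% in either direction). The median log2 fold change was 0.69 over the members and -0.29 over all tested genes. By role, 9 of 12 complex IV members rose, 6 of 15 of complex V, 7 of 28 complex I accessory subunits and 2 of 7 of complex III, and 0 of 7 core subunits, 0 of 4 complex II subunits and 0 of 7 assembly factors passed. The 4 fat libraries lay above the 3 microglia libraries without overlap for 36 members (background 15.2%) and below them for 2 (background 15.1%).

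Cox5a, a nuclear subunit that stabilises complex IV, stood at 56.5 and 111 CPM in sATM and 72.7 and 75.6 in vATM, against 20.4, 18.0 and 27.7 in microglia. Every fat library exceeded every microglia library, and the log2 fold change was 1.84 ± 0.31 (SE), adjusted p = 0.000557. Cox7b, a small transmembrane subunit of complex IV, measured 74.9 and 91.9 CPM in sATM, 121 and 78.5 in vATM, and 36.9, 32.3 and 28.1 in microglia. It did not overlap between fat and microglia either, with a log2 fold change of 1.49 ± 0.29 (SE), adjusted p = 0.0015.

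Of the remaining complex IV members, Cox6b1 (which helps to join complex IV monomers into a dimer), Cox6c, Cox8a, Cox4i1, Cox6a1, Cox5b and Cox7a2l rose by 0.78 (Cox7a2l) to 1.27 (Cox6c) on the log2 scale. Cox7a2 (0.92, adjusted p = 0.0623) and Ndufa4 (0.65, adjusted p = 0.248), a complex IV subunit first assigned to complex I, did not pass.

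In complex V, Atp5e, the epsilon subunit of the rotor stalk, had 74.4 and 188 CPM in sATM, 210 and 141 in vATM, and 52.0, 55.6 and 53.2 in microglia. The microglia were close together, sATM 1 lay far below sATM 2 and above all microglia, and the log2 fold change was 1.5 ± 0.30 (SE), adjusted p = 0.00188. Atp5o, the stalk subunit known as OSCP, rose by 1.34 on the log2 scale, Atp5g3, which encodes the c subunit of the rotor ring, by 1.2, Atp5b, the catalytic beta subunit, by 1.05, Atp5h by 0.98 and Atp5a1, the alpha subunit, by 0.71.

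Among complex I accessory subunits, Ndufa6 measured 92.9 and 131 CPM in sATM, 141 and 123 in vATM, and 63.9, 55.9 and 68.6 in microglia, with no overlap. Its log2 fold change was 0.95 ± 0.23 (SE), adjusted p = 0.00957. Ndufa1 (1.25), Ndufa11 (1.21), Ndufb6 (1.14), Ndufs6 (1.05), Ndufa3 (0.99) and Ndufb11 (0.94) also rose on the log2 scale. The core subunits, which hold the flavin and the iron-sulfur clusters, had log2 fold changes from 0.00 (Ndufs1) to 0.69 (Ndufv2, adjusted p = 0.0911).

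In complex III, Uqcr10, a small subunit, had 42.3 and 77.6 CPM in sATM, 92.1 and 83.2 in vATM, and 30.5, 22.2 and 34.0 in microglia. All fat libraries lay above all microglia libraries, with a log2 fold change of 1.32 ± 0.28 (SE), adjusted p = 0.00299, and Uqcrh, the hinge protein, rose by 0.97.

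**Figure D3:**
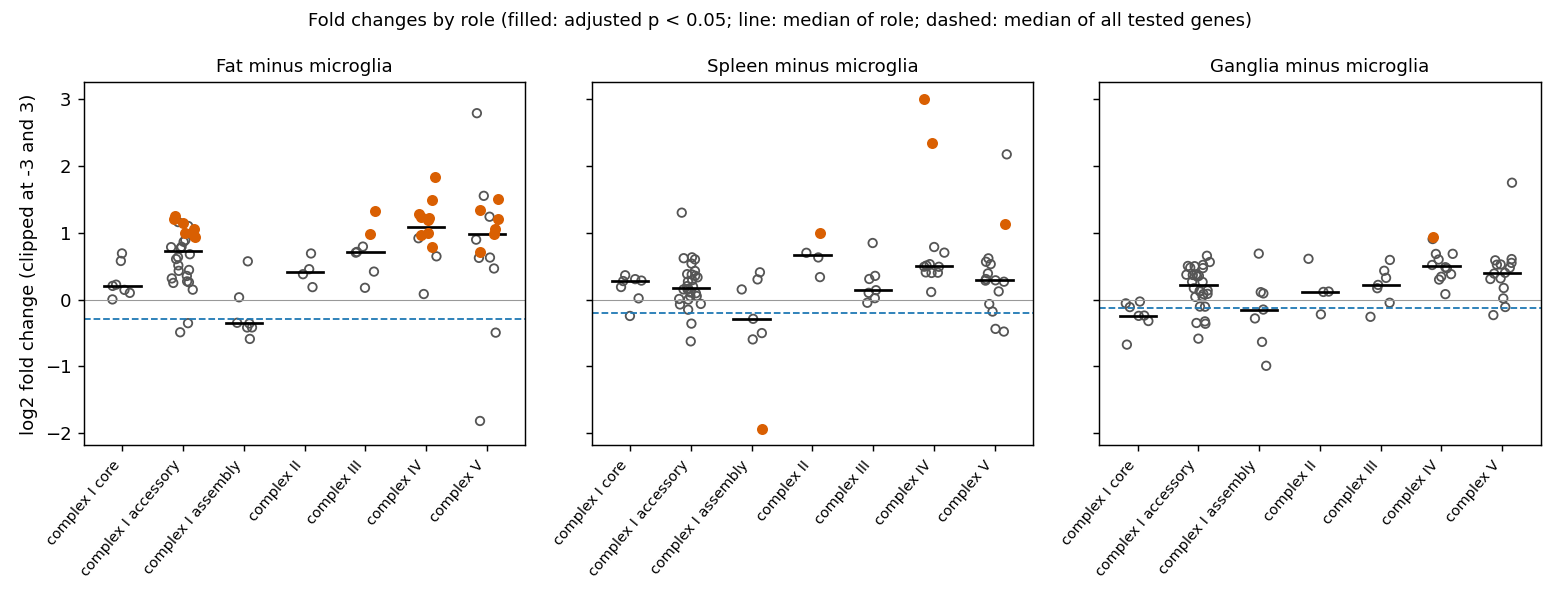
Log2 fold changes of the 80 genes against microglia (vertical axis, ends at -3 and 3) by role, for fat, spleen and ganglia macrophages; filled points passed at an adjusted p below 0.05, black lines are medians of a role and the dashed line is the median of all tested genes. In fat the filled points lie in complexes III, IV and V and the complex I accessory subunits, and in ganglia 1 point is filled.

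The fat count depended on the libraries and on the table. It was 9 without sATM 2 (Atp5e, Atp5g3, Atp5o, Cox5a, Cox6b1, Cox6c, Cox7b, Ndufa1 and Uqcr10), 10 without vATM 2, 12 without each of vATM 1, microglia 1 and microglia 2, and 33 without both fiber libraries, and in these fits no member was called lower. On raw gene-body counts, which keep introns and DNA background, 0 members passed (2.29% of all genes did). The members' median there was 0.95, which is not set against that of all genes here. On log2(RPKM + 0.1) with limma, where the median of all genes moved from -0.29 to -0.60, Atp5l, Cox5a and Cox7b passed as higher and Ndufc2 as lower, and 37.4% of all calls were higher, against 56.2%. On that scale the members' median stood 0.80 above that of all genes, against 0.98 in the fit to counts.

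Transcript length and marker sums moved with this difference, and their part in it was not tested. Members had a median transcript length of 741 bases against 2575 over all tested genes. Of the 52 members under 1000 bases 20 rose, and of the 28 longer ones 4. Over all 2069 tested genes under 1000 bases 9.57% rose and the median log2 fold change was -1.21. White adipocyte markers summed to 39.9 to 79.6 CPM in the 4 fat libraries and 0.225 to 3.53 in microglia. Brown adipocyte markers were at 0.798 to 2.22 in fat and 0.346 to 2.78 in microglia. The 8 macrophage markers were at 9029 to 12736 in fat and 5032 to 6382 in microglia. Most of the fat sum was Lyz2 (7082 to 11025 CPM, against 193 to 342 in microglia). Ptprc was also higher in fat. Csf1r (757 to 1294 against 3608 to 4972), Fcgr1 and Mertk were lower in fat, and Adgre1, Cd68 and Cd14 overlapped.

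The 2 fat depots were not distinguished. Between sATM and vATM 0 of 80 members passed, against a background of 0.0392% of all tested genes (0.0196% in each direction). By the same test 0 members had an unadjusted p below 0.05, and DESeq2 called 0 as well. The median log2 fold change was -0.17 over the members and -0.04 over all genes. The members' sum differed more between sATM 1 and sATM 2 (3380 and 5759 CPM) than between the depots' means (4569 and 5138), so differences of this size were not detectable with 2 libraries a depot.

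Against microglia, spleen macrophages had more Cox5a, Atp5g3 and Sdhc and less Ndufaf7. In all 4 of 80 members rose (background 5.95%) and 1 fell (background 5.43%, 11.4% in either direction), a smaller share in each direction than over all genes. The fourth gene that rose is Cox6a2, and the median log2 fold change was 0.29 over the members and -0.21 over all genes.

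Cox5a had 114, 103 and 118 CPM in spleen against 20.4, 18.0 and 27.7 in microglia. Of the 12 libraries outside the spleen only sATM 2, at 111 CPM, lay within the spleen's range. The log2 fold change against microglia was 2.34 ± 0.33 (SE), adjusted p = 0.000114, with a 95% interval from 1.64 to 3.04. The order of group means was spleen (112 CPM), sATM (84.0), vATM (74.1), fibers (65.2), ganglia (41.3) and microglia (22), in which each pair of neighbours overlapped except ganglia and microglia. Atp5g3 also rose against microglia (1.12 ± 0.27, SE, adjusted p = 0.0101).

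Succinate dehydrogenase, which is both complex II and an enzyme of the citric acid cycle, was described gene by gene. Sdhc, 1 of its 2 membrane anchors, had 62.9, 61.7 and 54.3 CPM in spleen and 32.1, 32.3 and 25.8 in microglia, and no library outside the spleen exceeded 46.2. It rose by 0.99 ± 0.28 (SE) on the log2 scale against microglia, adjusted p = 0.0305. The other anchor Sdhd (0.70, adjusted p = 0.129), the flavoprotein Sdha (0.63, adjusted p = 0.197) and the iron-sulfur subunit Sdhb (0.34, adjusted p = 0.673) did not pass in that comparison, and 0 of the 4 passed between spleen and ganglia or spleen and fat. The Sdhc call was lost without any 1 of the 3 microglia, 3 spleen or 2 vATM libraries.

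Ndufaf7, a methyltransferase that acts on a core subunit during complex I assembly, fell in spleen. It had 3.74, 3.28 and 2.59 CPM there against 13.1, 13.8 and 10.2 in microglia, 11.97 and 8.62 in sATM and 8.86 and 7.74 in vATM. Neither comparison overlapped, with log2 fold changes of -1.93 ± 0.47 (SE, adjusted p = 0.0105) for spleen against microglia and 1.52 ± 0.44 (SE, adjusted p = 0.0338) for fat against spleen. The first call was lost without microglia 1, SpM 3 or either vATM library, and the second without microglia 1, microglia 3 or any 1 of the fat and spleen libraries. Without microglia 1, SpM 3 or either vATM library the spleen and microglia count was 3 in place of 5, and on raw gene-body counts it was 0.

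**Figure D4:**
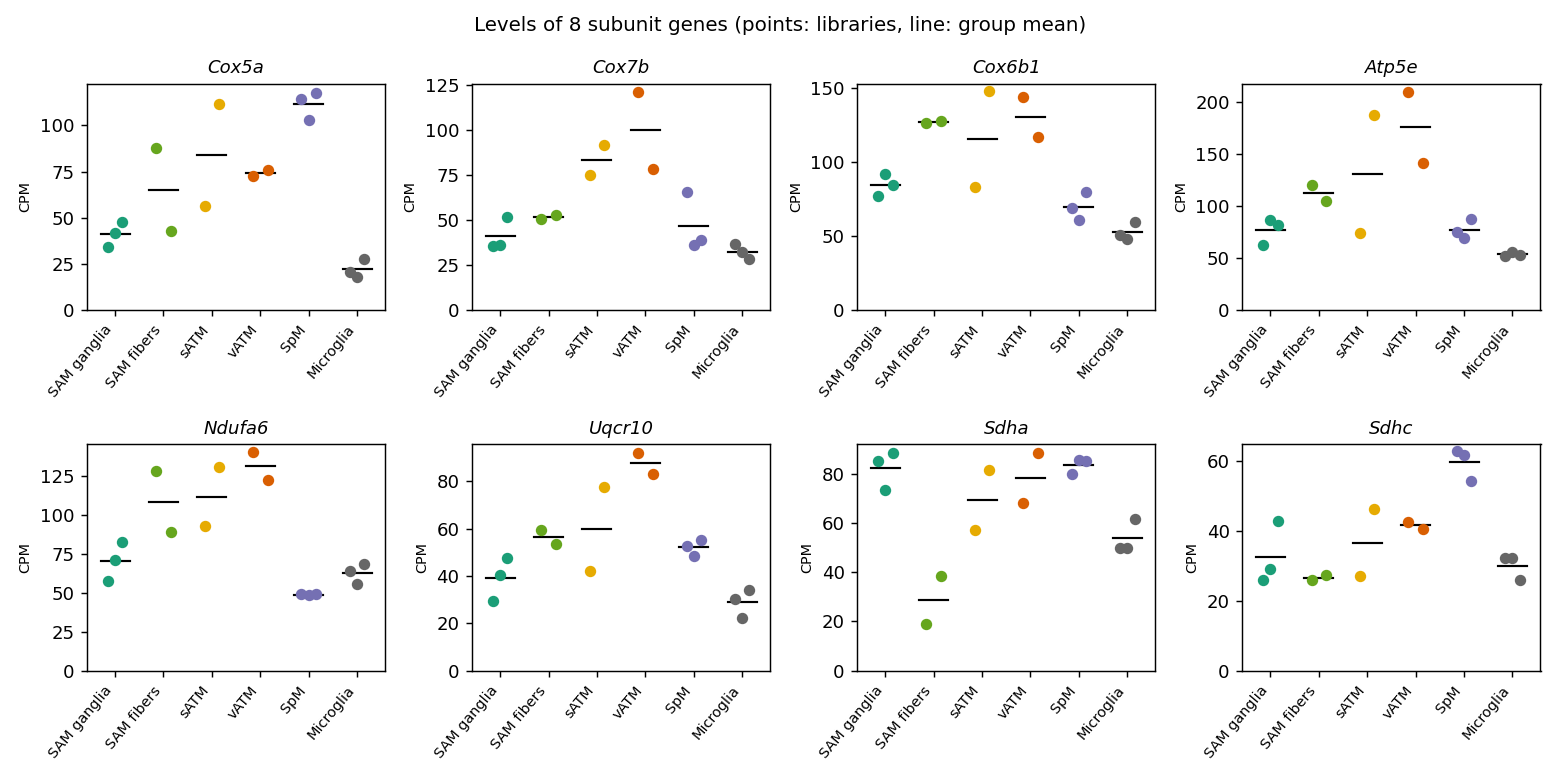
Level in CPM (vertical axes) of 8 subunit genes in each library (points) with the group mean (line). Cox5a and Sdhc peak in spleen, Ndufa6 is lowest there at 48.5 to 49.3 CPM, Cox7b is highest in the fat groups, and Sdha is lowest in the fibers.

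Cox6a2 encodes the heart and skeletal muscle isoform of subunit 6a. It is a single short transcript (mm10 chr7:128205435-128206366, minus strand). It had 56.1, 26.8 and 38.6 CPM in spleen and at most 1.49 CPM in the other 12 libraries, 7 of which were at 0. Pooled over libraries, this is 42.3 CPM in spleen (1174 counts) and 0.223 CPM elsewhere (16.9 counts). These levels are a description with no test, since the spleen counts are what made the gene a member.

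The 3′ end of Cox6a2 overlaps by 69 bases the 3′ end of Itgad, which encodes integrin alpha D, a red pulp macrophage gene on the plus strand (chr7:128173946-128205503). Itgad had 6211, 3855 and 3026 counts in the spleen libraries and at most 2.33 elsewhere, and Cox6a2 had 10.9, 6.36 and 8.39 counts for each 100 of Itgad. Whether counting used strand is not given in the sources used here, so reads of Cox6a2 and reads running on from Itgad cannot be told apart. Skeletal muscle markers summed to 4.02 to 6.05 CPM in spleen, within the 2.92 to 50.7 of the other libraries. The ubiquitous isoform Cox6a1 was the more abundant per length in each spleen library, at 275, 293 and 344 RPKM against 89.8, 46.9 and 64.9 RPKM for Cox6a2.

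**Figure D5:**
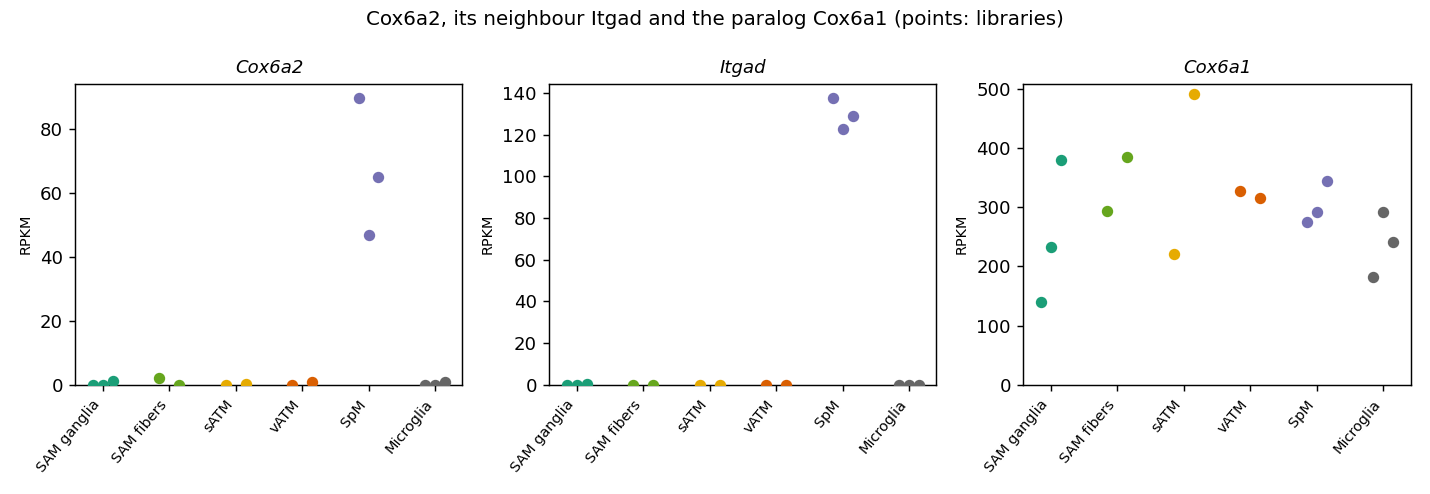
RPKM (vertical axes) of Cox6a2, of Itgad, whose 3′ end overlaps it, and of the ubiquitous isoform Cox6a1, in each library (points). Cox6a2 and Itgad are high in the 3 spleen libraries and near 0 in the other 12, while Cox6a1 is at 140 RPKM or more in every library.

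Compared with spleen, fat macrophages had more of 8 members (background 6.53%) and less of 1, Cox6a2 (background 5.38%, 11.9% in either direction). The members' median log2 fold change was 0.41, against -0.12 over all genes. Ndufa6 led, at 49.1, 48.5 and 49.3 CPM in spleen against 92.9 to 141 in fat, a log2 fold change of 1.31 ± 0.24 (SE), adjusted p = 0.00111. Also higher were Ndufaf7, Ndufa11 (1.28), Cox5b (1.12), Atp5o (1.04), Atp5e (0.97), Cox7b (0.96) and Cox6b1 (0.81), of which Atp5e overlapped between sATM 1 (74.4 CPM) and spleen (69.0 to 87.6). All 4 complex II genes had log2 fold changes at or below -0.01 in this comparison, and none passed. The count of 9 dropped to 2 without sATM 2, vATM 1, vATM 2 or SpM 2, and to 3 without SpM 1, SpM 3 or microglia 1. With RPKM it was 2 (Ndufa6 and Cox6a2), on raw gene-body counts 1.

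Few members set the ganglia macrophages apart from microglia, spleen or fat. Against microglia 1 of 80 rose (background 5.1%) and 0 fell (background 2.13%, 7.23% in either direction). It was Cox7a2l, counted here with complex IV, with 68.3, 95.5 and 71.6 CPM in ganglia and 39.8, 42.7 and 41.0 in microglia. No libraries overlapped, and the log2 fold change was 0.93 ± 0.23 (SE), adjusted p = 0.0164. The call was lost without any 1 of the 3 microglia libraries, ganglia 2, sATM 1 or either vATM library, and on RPKM and gene-body counts. The 7 core subunits of complex I had log2 fold changes from -0.67 to -0.03 and the 12 complex IV members from 0.08 to 0.93. The members' median was 0.26, and -0.05 on log2(RPKM + 0.1) with limma, which changes the table, the transformation and the test together, while that of all genes moved from -0.13 to -0.46.

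Against spleen, 0 members were higher in ganglia (background 6.1%) and 2 were lower (background 3.79%, 9.89% in either direction), Cox6a2 and Cox5a. Cox5a had 34.4, 42.0 and 47.5 CPM in ganglia against 103 to 118 in spleen, without overlap, and differed by -1.43 ± 0.32 (SE) on the log2 scale, adjusted p = 0.00695. Without both fiber libraries the count was 4, with Ndufs1 and Sdhc added. Against fat, 0 were higher (background 2.51%) and 1 was lower (background 1.23%, 3.74% in either direction): Cox7b, at 35.8, 36.0 and 51.6 CPM in ganglia against 74.9 to 121 in fat, a log2 fold change of -1.15 ± 0.28 (SE), adjusted p = 0.0309. The members' median was -0.47 against 0.14 over all genes. The Cox7b call was lost without ganglia 1, ganglia 2, sATM 2 or either vATM library, 2 members passed without sATM 1 and 3 without SAM fibers 2. These comparisons share the ganglia libraries and are not independent.

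In the fibers the sums of complex II and of the complex I assembly factors were the lowest of the 6 groups. The assembly factor sum includes Ndufaf1 and Ndufaf4 at 0 in both fiber libraries, as described below. Some subunits of complex IV were not lowest in fibers: Cox6b1 had 126 and 128 CPM, inside the 83.5 to 148 of the fat libraries. Against sATM, the macrophages of the surrounding fat, 0 of 80 members rose (background 1.85%) and 3 fell (background 2.99%, 4.84% in either direction), and the median was -0.25 over the members and 0.00 over all genes. Sdha had 19.1 and 38.3 CPM in fibers and 57.3 and 81.6 in sATM, and the fibers were below all 13 other libraries, of which microglia 1 at 49.9 was the closest. The log2 fold change was -1.27 ± 0.34 (SE), adjusted p = 0.0458, and 20 of 24 alternatives lost the call.

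The other 2 were the assembly factors Ndufaf4 and Ndufaf1, which are listed at 0 in both fiber libraries, so no fold change is given. Ndufaf4 had 6.37 and 9.66 CPM in sATM (adjusted p = 0.00231) and 5.47 to 16.8 in the other groups' libraries. Ndufaf1 had 0.509 and 5.40 CPM in sATM (adjusted p = 0.0382). In the fibers the raw gene-body counts were 146 and 58 for Ndufaf4 and 129 and 44 for Ndufaf1, so the zeros of these genes may be failed estimates. SAM fibers 1 listed 6 members at 0 (Atp5s, Atp5sl, Ndufab1, Ndufaf1, Ndufaf4 and Ndufs1, the last with 773 gene-body counts) and SAM fibers 2 listed 4. The fiber count was 6 without SAM fibers 2 and 1 without SAM fibers 1 or sATM 2, or without any 1 of the spleen and vATM libraries, microglia 1, microglia 3 or ganglia 2. On raw gene-body counts it was 0. With size factors of DESeq2's kind in edgeR, 2 passed, the members' median was 0.06, that of all genes 0.28, and 57.2% of all calls were higher in fibers in place of 38.2%. The neuron, Schwann cell, erythroid and fibroblast markers given above moved with the fibers, and their part was not tested.

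Genes that feed the chain were read from lists chosen by function. Calls of list genes come from the main fit alone and were not checked under the alternatives. Of 17 tested genes of pyruvate dehydrogenase and the citric acid cycle, 5 rose and 0 fell in fat against microglia (8.66% of all tested genes rose), with the list's median at 0.12 against -0.29 for all genes. Fh1, fumarate hydratase, which uses the product of complex II, had 32.8 and 70.5 CPM in sATM, 41.4 and 51.5 in vATM and 12.6, 9.54 and 15.5 in microglia. It rose by 1.96 ± 0.34 (SE) on the log2 scale without overlap, adjusted p = 0.000695. Cs, citrate synthase (1.23), Ogdh (1.2), Mdh2 (1.13) and Pdha1 (1.06) also rose. In fibers against sATM 4 of the 17 fell (Pdha1, Cs, Ogdh and Fh1) and 0 rose, against 2.99% lower and 1.85% higher over all tested genes.

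Of 16 genes of electron carriers and ubiquinone synthesis, 2 rose and 0 fell in fat against microglia (8.66% of all tested genes rose, so 2 of 16 is near the background), Etfa and Etfb, which pass electrons from fatty acid oxidation to ubiquinone. Etfb, the 1 of the 16 that rose in spleen against microglia (background 5.95%), was highest in spleen, at 152, 188 and 243 CPM against 31.4, 41.5 and 54.9 in microglia, with a log2 fold change of 2.19 ± 0.36 (SE), adjusted p = 0.000394. Of 9 tested transport and uncoupling genes, the phosphate carrier Slc25a3 (1.10) and the inner membrane carrier Ucp2 (2.14) rose in fat against microglia. Of 35 other assembly factors 1 rose, Sdhaf2 (1.05), which attaches flavin to Sdha, and none fell, a smaller share than over all genes. Of 14 regulators of mitochondrial gene expression, 0 passed in fat against microglia (8.66% of all tested genes rose and 6.74% fell). The list's median was -0.63, against -0.29 for all genes. Against microglia 1 of the 14 rose in spleen and 0 fell (5.95% and 5.43% over all tested genes), with the list's median at -0.33 against -0.21 for all genes. It was Ppargc1b, a coactivator of respiratory genes, which had 40.0, 36.3 and 37.3 CPM in spleen against 3.20, 4.77 and 1.06 in microglia, adjusted p = 0.00498.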

How the data were processed

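Macrophages were profiled by low-input RNA-seq in 15 libraries of 6 groups. Per the submitters' processing notes STAR, HOMER and mm10 were used. Not given in the sources used here: their versions and the strand setting of the counting. The main values are estimated counts that the authors deposited after removing DNA contamination, by a method that is not stated. The RPKM that the authors deposited come from the same corrected data, and a table of raw counts over gene bodies, introns included, was deposited without that step.

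Estimated counts were rounded and fitted in edgeR 4.0.16 in R 4.3.3: filterByExpr (minimum count 10), TMM scaling, 1 mean per group over 15 libraries, quasi-likelihood F-tests, Benjamini-Hochberg adjustment over 15289 genes, called at an adjusted p below 0.05. The ribosomal RNA genes stayed in library sizes. Libraries held 2546390 to 12515900 counts. Intervals are 95%. CPM are TMM-scaled, and a level of 0 allows up to 3 counts in a library, or 0.249 to 0.897 CPM, counting error only. The fits were run on simulated counts with less spread than these data, which does not show how well they perform here. Rose and fell are used of called genes. Alternatives were RLE scaling, no ribosomal RNA genes, no filter, a fold minimum of 2, DESeq2 1.42.0, gene-body counts, limma 3.58.1 on log2(RPKM + 0.1) and log2(RPKM + 1), the replicate number as a block, and leaving out libraries.

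Named genes are the complex II genes, isoform pairs, the 4 members per role with the smallest p between groups, the 3 per comparison and direction with the smallest p, the 3 highest in RPKM and members at 0 in a whole group; other called members are named as parts of a count. Members, lists and tests were chosen with earlier results of these data known. Exons of 24 of the 80 members overlap another gene's (23 on the opposite strand, GENCODE), among them Cox5a, Cox4i1, Atp5o, Atp5a1, Ndufa11 and Ndufb6, and reads there cannot be assigned without a stated strand setting. No 2 libraries held identical values, and replicates differed by 13.0 or more times counting noise (chi-square per degree of freedom).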

Additional observations from a re-analysis of the deposited data

How the results depend on the processing

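Counts of members passing are given as in the report and then under each alternative that moved them by over 1.5 times. For any difference between groups (15): 34 with DESeq2, 1 on gene-body counts, 6 and 7 on log2(RPKM + 0.1) and log2(RPKM + 1), 4 to 25 with 1 library left out. Spleen against microglia (5): 3 without the filter, 9 with DESeq2, 0 on gene-body counts, 3 and 3 on RPKM, 3 to 5 with 1 library left out. Ganglia against microglia (1): 0 without the filter, with a fold minimum of 2, on gene-body counts and on both RPKM scales, 2 with DESeq2 and without both fiber libraries, 0 to 1 with 1 library left out. Ganglia against spleen (2): 1 on gene-body counts, 4 without both fiber libraries, 2 to 3 with 1 library left out. Fat against microglia (24): 14 without the filter, 15 with a fold minimum of 2, 0 on gene-body counts, 4 and 5 on RPKM, 9 to 32 with 1 library left out. Fat against spleen (9): 2 without the filter, 1 on gene-body counts, 2 and 2 on RPKM, 2 to 9 with 1 library left out. Ganglia against fat (1): 0 without the filter, on gene-body counts and on both RPKM scales, 5 with DESeq2, 3 without both fiber libraries, 0 to 3 with 1 library left out. Fibers against sATM (3): 0 on gene-body counts, 1 to 6 with 1 library left out. sATM against vATM stayed at 0 in all of these, 0 to 0 with 1 library left out.

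With the replicate block the counts were 16 for any difference, 27 for fat against microglia, 7 for fat against spleen and 0 for ganglia against fat. Deviations of libraries with the same number correlated from -0.38 to 0.64 (median 0.23 for number 1), which does not pair them, but libraries numbered 1 had fewer genes detected in all 6 groups. The block ended 7 of the 60 calls of single genes, those given in the report. No call that has a direction changed it under any alternative, and the 15 calls of any difference have no direction to change. Of 60 calls of single genes, 57 were lost under at least 1 alternative. The other 3 are of Cox6a2, which its spleen counts made a member, and show nothing of stability. Where a group was left with 1 library, that library was assumed to vary like the other groups. The cause of these changes was not tested. The raw gene-body table called fewer genes in general (2.94% for any difference, against 22.2%). Depth limits the low members: 3 counts came to as much as 0.897 CPM in SAM fibers 1, where 6 members were listed at 0.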
